A study of Mus musculus with 15 samples.

Results

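The *Dlx* genes examined here were the 4 homeobox genes *Dlx1*, *Dlx2*, *Dlx5* and *Dlx6* and the antisense RNAs *Dlx1as* and *Dlx6os1*, which were found by gene name in both deposited tables. All 6 names were present among the 26835 genes of the *Lhx6* table and the 25714 genes of the *Mtg8* table. *Dlx6os1* was listed under 2 identifiers, a long non-coding RNA and a short RNA of 146 bases, so that the names covered 7 rows. Every cell population was YFP-positive cells sorted from the cortex of single mouse embryos at E14.5 on a mixed C57BL6/CBA background, and all embryos carried Nkx2-1-Cre and R26R-YFP fl/fl, which label cells derived from the medial ganglionic eminence (MGE). The 4 *Lhx6* controls were Lhx6+/+ and the 5 *Lhx6* mutants were Lhx6-/-, a germline loss-of-function allele made from floxed mice. The 3 *Mtg8* controls were Mtg8+/+ and 3 libraries were labelled *Mtg8* mutant, Mtg8-/-. The alleles were carried by all cells of the embryo and not only by the sorted lineage, and male and female embryos were used. The paper reports that the sexes were unevenly spread over its control and mutant samples and skewed the data. The sex of single libraries was not used here. Values are normalized counts, which are reads on a gene divided by a size factor of the library, and the *Lhx6* and *Mtg8* tables were normalized separately. Both comparisons ask how the level of these regulators differs in migrating interneurons between controls and embryos labelled as mutant for *Lhx6* or *Mtg8*.

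DLX proteins are homeodomain transcription factors of the ventral forebrain that are needed for the differentiation and migration of GABAergic interneurons. Their genes lie in pairs that are transcribed towards each other and share enhancers in the stretch between them, with *Dlx1* beside *Dlx2* and *Dlx5* beside *Dlx6*. In interneuron lineages *Dlx1* and *Dlx2* act early, from the dividing progenitors of the subventricular zone, whereas *Dlx5* and *Dlx6* act downstream of them and remain active in postmitotic cells. *Dlx6os1*, also known as Evf2, is transcribed across *Dlx6* and part of the stretch between *Dlx5* and *Dlx6* and is known to bring DLX proteins to the enhancers there.

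The coding sequence of the homeobox, which encodes the DNA-binding homeodomain, is shown because it is where the 4 genes are most alike and where short reads could be confused between them. The 180 bases of each were read 5′ to 3′ from GENCODE M21 transcripts (GRCm38), and capitals mark the 74 positions at which the 4 genes are not all the same:
Dlx1: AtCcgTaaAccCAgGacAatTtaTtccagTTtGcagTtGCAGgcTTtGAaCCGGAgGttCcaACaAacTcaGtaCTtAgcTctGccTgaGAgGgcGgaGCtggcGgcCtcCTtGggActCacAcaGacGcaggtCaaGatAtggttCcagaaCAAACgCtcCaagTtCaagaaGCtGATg
Dlx2: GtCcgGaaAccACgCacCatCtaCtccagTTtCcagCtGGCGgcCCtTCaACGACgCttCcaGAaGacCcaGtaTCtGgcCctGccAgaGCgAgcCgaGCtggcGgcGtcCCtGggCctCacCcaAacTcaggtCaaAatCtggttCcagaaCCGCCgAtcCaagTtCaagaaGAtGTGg
Dlx5: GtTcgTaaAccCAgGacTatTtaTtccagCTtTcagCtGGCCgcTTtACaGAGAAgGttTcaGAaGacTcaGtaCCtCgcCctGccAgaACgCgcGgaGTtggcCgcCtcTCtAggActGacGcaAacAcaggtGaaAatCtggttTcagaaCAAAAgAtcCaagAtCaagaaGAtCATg
Dlx6: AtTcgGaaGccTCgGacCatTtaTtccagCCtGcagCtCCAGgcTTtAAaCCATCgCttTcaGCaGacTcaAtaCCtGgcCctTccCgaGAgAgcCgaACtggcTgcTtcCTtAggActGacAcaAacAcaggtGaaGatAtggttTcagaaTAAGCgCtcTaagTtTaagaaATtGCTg
The remaining 106 bases were identical in all 4 genes, and 51 of the 74 variable positions were at the last base of a codon. Pairwise identity ran from 71.1% between *Dlx2* and *Dlx6* to 76.7% between *Dlx1* and *Dlx6*, and the longest identical run in any pair was 15 bases, between *Dlx1* and *Dlx2*. The reads were 75 bases long. No window of 75 bases in the transcripts of *Dlx1*, *Dlx2* or *Dlx5* occurred on the same strand in a transcript of another gene, and for *Dlx6* 0.422% of windows did, in *Gm45470* and *Klhl32*. No such window on the same strand was shared between the 4 homeobox genes. On the opposite strand 4.68% of the windows of *Dlx1* occurred in *Dlx1as*, and 1.9% of those of *Dlx6* occurred in other transcripts, *Dlx6os2* among them. In turn 17.0% of the windows of *Dlx1as* occurred in *Dlx1* on that strand, and 4.65% of those of *Dlx6os1* in *Gm27699* and *Gm27905*. No such window was found for *Dlx2* or *Dlx5*.

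The antisense RNAs overlap the coding genes to different degrees. *Dlx1* lay at chr2:71528113-71533981 on the plus strand (GRCm38) and *Dlx2* at chr2:71543408-71546754 on the minus strand. *Dlx1as* covered chr2:71516454-71537891 on the minus strand, and its exon at chr2:71532784-71533118 lay inside the last exon of *Dlx1*. These 335 bases were 20.6% of the exon length of *Dlx1as* and 6.21% of that of *Dlx1*. The span of the protein-coding gene *Metap1d* (chr2:71453276-71525194, plus strand) overlapped that of *Dlx1as* without a shared exon base. On chromosome 6, *Dlx6os1* spanned chr6:6820189-6871592 on the minus strand, 51404 bases that contain the whole of *Dlx6* at chr6:6863334-6868568 on the plus strand, yet the exons of the 2 genes shared 0 bases. *Dlx5* lay at chr6:6877805-6882085 on the minus strand and overlapped no other gene. *Dlx6* shared 104 exon bases, 4.38% of its length, with *Dlx6os2*, a short transcript on the other strand. The sources used here do not say whether the counting used strand, so within the shared bases reads of a gene and of its antisense partner cannot be told apart.

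**Figure D1:**
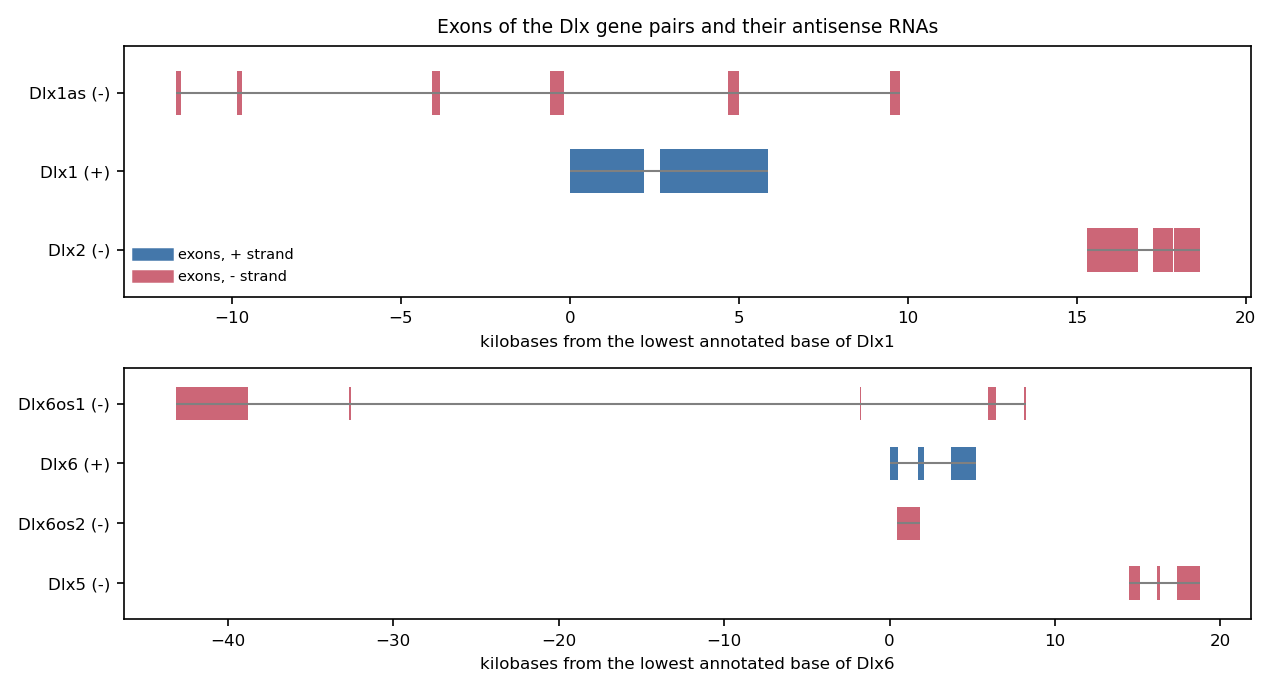
Exons (boxes) of the *Dlx* pairs and antisense RNAs, in kilobases from the lowest annotated base of *Dlx1* (upper panel) and of *Dlx6* (lower panel), coloured by strand. One exon of *Dlx1as* lies within *Dlx1*, whereas the exons of *Dlx6os1* lie on both sides of *Dlx6* and share none of its bases.

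The libraries held 12218422 to 22053032 reads on genes. *Lhx6* itself was lower in the *Lhx6* mutants, at 331 ± 99.7 normalized counts (mean ± SD, n = 5) against 7247 ± 1093 in controls (n = 4), with a limma adjusted p = 1.34e-07. *Runx1t1*, which encodes MTG8, ran from 7938 to 10265 in *Mtg8* controls and from 12250 to 13934 in the 3 labelled mutants, which goes against the label. The *Mtg8* allele named in the study's methods is a LacZ knock-in, and where it changes the counted transcript is not given in the sources used here. *Sst*, an MGE interneuron marker named here after its values were seen, had 6615 ± 1259 (SD, n = 3) in the labelled mutants and 16695 ± 2081 (SD, n = 3) in controls without overlap (log2 fold change -1.34, limma adjusted p = 0.0713). Library names were dated or undated. Of the *Lhx6* libraries, all 4 controls and mutant 6 were undated and the other 4 mutants were dated, so for those 4 genotype and name style cannot be told apart. This limit holds for every gene called in the *Lhx6* comparison. Each library came from one embryo, and the p-values measure the spread between these libraries. The 11 markers of MGE interneurons all had reads in every library, and so did the 10 markers of cortical projection neurons.

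In the *Lhx6* mutants *Dlx5* and *Dlx6* were higher than in controls, and *Dlx1*, *Dlx2*, *Dlx1as* and *Dlx6os1* were not called in either direction. *Dlx5* rose 2.04-fold and *Dlx6* 3.27-fold in mean normalized count, and for both every mutant library lay above every control library. Of the 6 members, 2 were thus called higher and 0 lower, where 1.71% of the 16727 genes tested were called in either direction, 1.03% higher and 0.682% lower. DESeq2 on recovered reads called the same 2 members and 4.53% of the genes it tested. An unadjusted limma p under 0.05 was seen for 3 members (*Dlx5*, *Dlx6* and *Dlx6os1*) and for 12.7% of all genes. The median log2 fold change of the 6 members was 0.32, beside -0.037 over all genes tested.

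*Dlx5* had 2212, 2083, 1932 and 2301 normalized counts in *Lhx6* controls 1 to 4. In *Lhx6* mutants 1, 2, 3, 5 and 6 it had 4441, 4081, 5357, 4083 and 3828. The lowest mutant lay well above the highest control, with a coefficient of variation of 7.54% in controls and 13.8% in mutants. The log2 fold change was 1.02 ± 0.13 (SE), with a 95% interval of 0.75 to 1.3 and an adjusted p = 0.000719 by limma with Benjamini-Hochberg adjustment over all genes. An exact two-sided permutation test of the same values gave p = 0.00794, the smallest that 4 against 5 libraries allow.

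*Dlx6*, the partner of *Dlx5*, was the lowest of the 6 per length in controls and moved most. Its normalized counts were 735.4, 551.3, 711.2 and 628.6 in *Lhx6* controls 1 to 4. They were 2939, 1915, 2504, 2093 and 1279 in *Lhx6* mutants 1, 2, 3, 5 and 6. Again the groups did not overlap, and mutant 6, the undated one, was the lowest mutant. Its log2 fold change was 1.66 ± 0.21 (SE), with a 95% interval of 1.2 to 2.12 and a limma adjusted p = 0.000979. The exact permutation p was 0.00794 for *Dlx6* too. Groups that do not overlap were seen in 2 of the 6 members and in 6.22% of all genes tested in this table, 3.19% with mutants higher and 3.03% with mutants lower.

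Both calls were made against controls with one style of library name. Mutant 6 alone, set against the 4 undated controls, was higher by 0.85 for *Dlx5* and by 0.97 for *Dlx6* on the log2 scale. When limma was fitted with name style as a covariate, which leaves mutant 6 to carry the effect of genotype, the adjusted p was 0.186 for *Dlx5* and 0.298 for *Dlx6*. Mutant 6 shares a name stem with controls 1 and 2, and against these 2 libraries its differences were 0.83 and 1.01. The direction was thus the same within the undated libraries, but the size for *Dlx6* was smaller than in the full comparison and neither gene passed the threshold. Leaving out any single library kept both genes past the threshold, with log2 fold changes of 0.95 to 1.07 for *Dlx5* and of 1.54 to 1.83 for *Dlx6*.

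*Dlx6os1*, the non-coding RNA around *Dlx6*, had 6494, 4371, 5144 and 4426 normalized counts in *Lhx6* controls 1 to 4. In *Lhx6* mutants 1, 2, 3, 5 and 6 it had 6631, 6185, 10693, 7610 and 6721. The groups overlapped only through control 1, which lay above mutant 2. *Dlx6os1* had a log2 fold change of 0.56 ± 0.17 (SE, 95% interval 0.18 to 0.93), but with an adjusted p = 0.167 by limma and 0.0744 by DESeq2 on the recovered reads it was not called. Its unadjusted limma p was 0.00705 and its exact permutation p was 0.0238. The short row under the same name had means of 4.99 normalized counts in controls and 8.51 in mutants, under the minimum of 10, and was not tested. *Dlx6os2*, which is no member but overlaps *Dlx6*, had 15.7 to 23.1 in controls and 13.6 to 100.2 in mutants, with a log2 fold change of 0.86 ± 0.55 (SE) and a limma adjusted p = 0.535. Its level was far below that of *Dlx6* in every library.

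No difference was called for *Dlx1*, *Dlx2* and *Dlx1as*. *Dlx1* had 13359, 8676, 13903 and 10675 normalized counts in *Lhx6* controls 1 to 4 and 10409, 10498, 19816, 11791 and 10341 in mutants 1, 2, 3, 5 and 6. Mutant 3 stood far above the other libraries, while the other mutants lay within the range of the controls. *Dlx1* had a log2 fold change of 0.08 ± 0.20 (SE), with a 95% interval of -0.36 to 0.53 and a limma adjusted p = 0.878, and without mutant 3 it was -0.09.

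*Dlx2* had 2707, 2065, 3083 and 2387 normalized counts in *Lhx6* controls 1 to 4. It had 3146, 2264, 3656, 2013 and 2109 in mutants 1, 2, 3, 5 and 6. The ranges overlapped, with the mutants wider on both sides. Its log2 fold change was 0.02 ± 0.19 (SE), with a 95% interval of -0.40 to 0.44 and a limma adjusted p = 0.975, and the sign turned with the scaling, to -0.02 with TMM factors and to -0.04 with equal totals.

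*Dlx1as*, the RNA antisense to *Dlx1*, had 1105, 714, 1187 and 845 normalized counts in *Lhx6* controls 1 to 4. It had 342, 726, 1778, 873 and 792 in mutants 1, 2, 3, 5 and 6. Mutant 1 was the lowest and mutant 3 the highest of all 9 libraries, so the mutants spanned the controls. The log2 fold change was -0.26 ± 0.36 (SE), with a 95% interval of -1.03 to 0.52 and a limma adjusted p = 0.773, and it was 0.04 without mutant 1. The intervals of *Dlx1*, *Dlx2* and *Dlx1as* leave room for differences in both directions, and a p that misses the threshold does not show that their levels were alike.

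**Figure D2:**
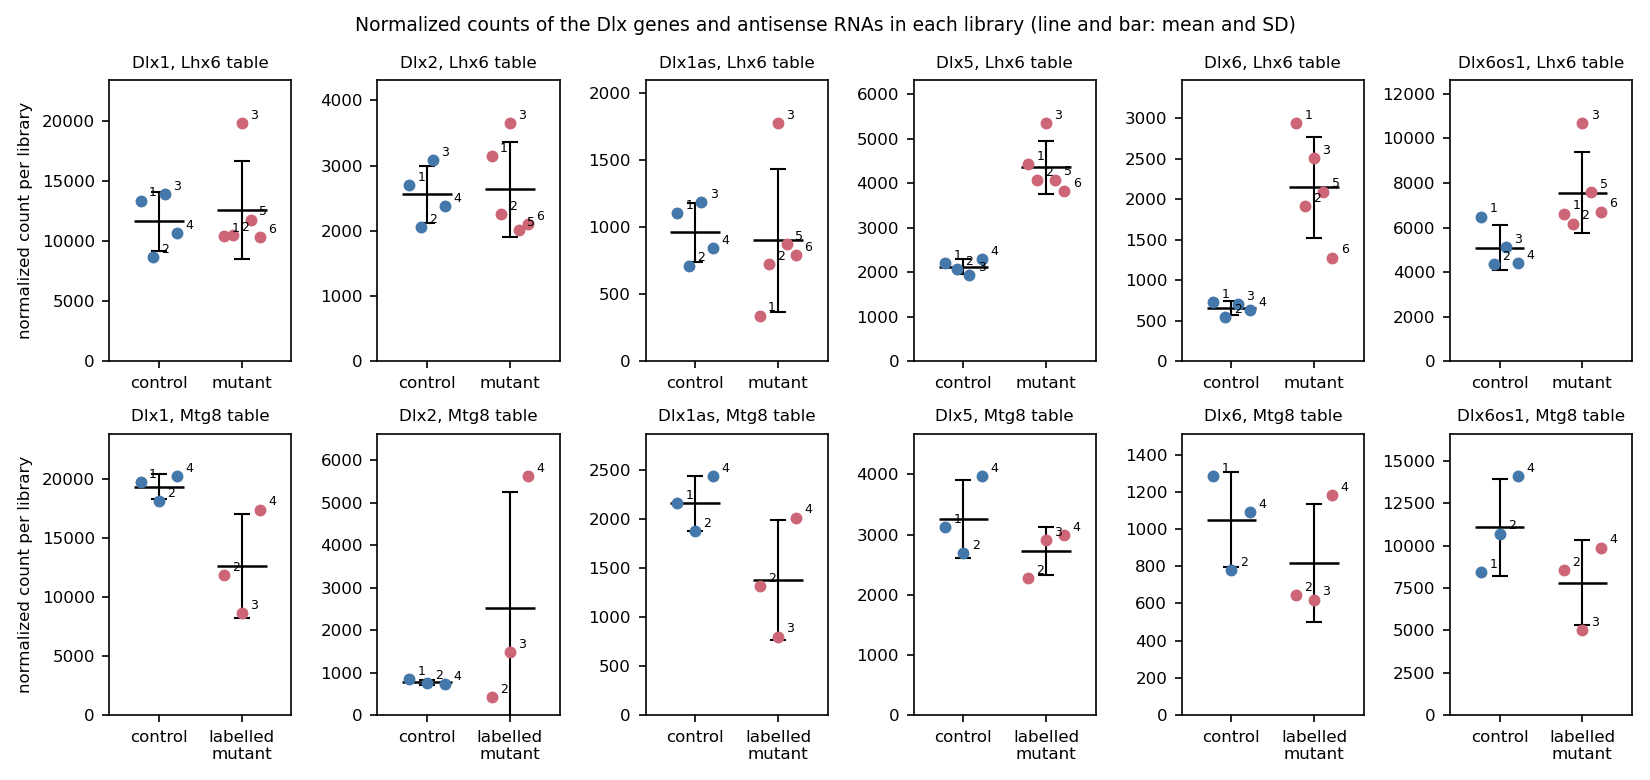
Normalized counts of the 6 members in each library (dots, with replicate numbers), with the mean and SD of each group, for the *Lhx6* table (upper row) and the *Mtg8* table (lower row). *Dlx5* and *Dlx6* of all 5 *Lhx6* mutants lie above all 4 controls, and *Dlx2* of the libraries labelled *Mtg8* mutant runs from 432 to 5616.

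In the *Mtg8* comparison no member was called, and 0.0% of the 16132 genes tested passed an adjusted p under 0.05 by limma. Without adjustment 886 genes, 5.49% of those tested, had a limma p under 0.05, and 2 of them were members (*Dlx1* and *Dlx1as*). In addition, on recovered reads DESeq2 called 31 genes, 0.191% of those it tested, and edgeR called 1, and 0 of these were members. The labelled mutants had the lower mean for 5 members, and that of *Dlx2* was higher, with a median log2 fold change of -0.46 over the 6 members beside -0.013 over all genes. A permutation of 3 against 3 libraries cannot give a p below 0.1.

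*Dlx1* had 19720, 18158 and 20217 normalized counts in *Mtg8* controls 1, 2 and 4. The labelled mutants 2, 3 and 4 had 11836, 8648 and 17407. All 3 of these lay below all controls. Groups did not overlap in either direction for 10.2% of all genes tested in this table, 5.52% with the labelled mutants lower and 4.68% with them higher. The log2 fold change was -0.67 ± 0.23 (SE), with a 95% interval of -1.16 to -0.18, a limma adjusted p = 0.859 and an exact permutation p = 0.1. Its antisense partner *Dlx1as* had 2165, 1884 and 2439 in the controls and 1318, 802 and 2018 in the labelled mutants. The order of the 3 labelled mutants was the same as for *Dlx1*, and mutant 4 lay among the controls. The log2 fold change of *Dlx1as* was -0.74 ± 0.29 (SE) and its limma adjusted p was 0.859.

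*Dlx2* differed most between libraries of one group. It had 842, 747 and 738 normalized counts in *Mtg8* controls 1, 2 and 4, a coefficient of variation of 7.44%. The labelled mutants 2, 3 and 4 had 432, 1485 and 5616, so that mutant 2 lay below all controls and the other labelled mutants above them. The log2 fold change was 0.99 ± 0.64 (SE), with a 95% interval of -0.40 to 2.37 and a limma adjusted p = 0.867, and without mutant 4 it was 0.05. Without mutant 2 it was 1.9 (adjusted p = 0.0922, limma), and on recovered reads it was 1.69 by DESeq2 and 1.71 by edgeR. The dated labelled mutant differed from the dated controls by -0.88 on the log2 scale, and the 2 undated labelled mutants differed from the undated control by 1.97. *Dlx1* of mutant 4 was at 17407, close to its controls, so in this library *Dlx2* was far above its controls and *Dlx1* was not.

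*Dlx5* had 3123, 2687 and 3965 normalized counts in *Mtg8* controls 1, 2 and 4 and 2274, 2907 and 2994 in the labelled mutants 2, 3 and 4. *Dlx6* had 1282, 777 and 1091 in the controls and 647, 620 and 1183 in the labelled mutants. *Dlx6os1* had 8437, 10713 and 14087 in the controls and 8556, 5024 and 9889 in the labelled mutants. The groups overlapped for each of these genes. The log2 fold changes were -0.25 ± 0.20 (SE, 95% interval -0.69 to 0.19) for *Dlx5*, -0.40 ± 0.28 (SE, -1.01 to 0.21) for *Dlx6* and -0.53 ± 0.26 (SE, -1.09 to 0.03) for *Dlx6os1*, with limma adjusted p = 0.885, 0.873 and 0.859. With one library left out they ran from -0.38 to -0.10 for *Dlx5*, from -0.70 to -0.23 for *Dlx6* and from -0.73 to -0.24 for *Dlx6os1*. For *Dlx1* and *Dlx1as* they ran from -0.94 to -0.43 and from -1.06 to -0.40, in each case with mutant 4 left out for the lowest value and mutant 3 for the highest. For *Dlx5* and *Dlx6* the point estimates thus had the opposite sign to those in the *Lhx6* mutants. No test was made of the difference between the mutants, as size factors were set within each table.

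**Figure D3:**
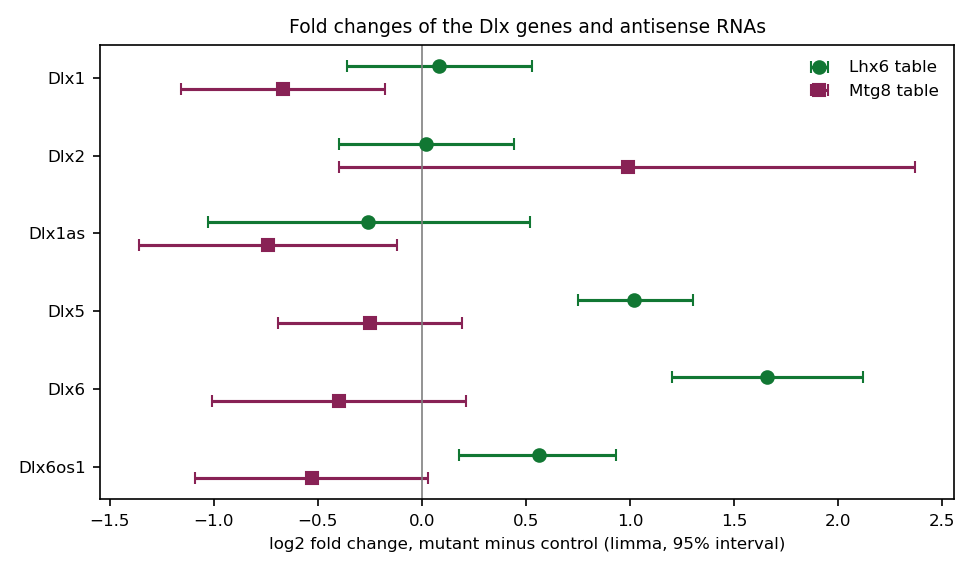
Log2 fold change of each member, mutant minus control, with its 95% interval from limma, in the *Lhx6* table (circles) and the *Mtg8* table (squares). The intervals of *Dlx5* (0.75 to 1.3), *Dlx6* (1.2 to 2.12) and *Dlx6os1* (0.18 to 0.93) in the *Lhx6* table lie above 0, those of *Dlx1* (-1.16 to -0.18) and *Dlx1as* (-1.36 to -0.12) in the *Mtg8* table lie below 0, and the widest interval is that of *Dlx2* in the *Mtg8* table.

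Ratios between genes within a library do not depend on the scaling between libraries, and 5 of them were compared. The ratio of *Dlx1* plus *Dlx2* to *Dlx5* plus *Dlx6* was 5.45, 4.08, 6.42 and 4.46 in *Lhx6* controls 1 to 4. It was 1.84, 2.13, 2.99, 2.23 and 2.44 in *Lhx6* mutants 1, 2, 3, 5 and 6. No mutant reached the lowest control, and mutant 6 lay between mutants 5 and 3. The mean log2 ratio was lower by 1.13 in mutants (exact two-sided permutation p = 0.00794, adjusted over the 5 ratios p = 0.0397), and mutant 6 differed from the 4 undated controls by -1.04. The adjusted p was 0.0893 without control 1 and 0.0714 without mutant 1, 2 or 5, and it was 0.0446 without control 2, 3 or 4 and 0.0476 without mutant 3 or 6. Fewer libraries raise the smallest p that the permutation test allows, so these values alone do not show dependence on one library. Over these fits the log2 difference ran from -1.23 to -1.01.

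The ratio of *Dlx6os1* to *Dlx6* was 8.82, 7.92, 7.22 and 7.03 in *Lhx6* controls 1 to 4 and 2.26, 3.23, 4.27, 3.64 and 5.25 in mutants 1, 2, 3, 5 and 6. The groups did not overlap, and every mutant had less *Dlx6os1* for each count of *Dlx6*. The log2 difference was -1.11 (exact permutation p = 0.0159, adjusted p = 0.0397), and for mutant 6 against the undated controls it was -0.56. Its adjusted p with one library left out took the same values as that of the ratio above, 0.0446 to 0.0893, under the same limit. The ratio of *Dlx5* to *Dlx6* fell from 3.29 ± 0.51 (SD, n = 4) to 2.14 ± 0.538 (SD, n = 5), a log2 difference of -0.64 (exact permutation p = 0.0238, adjusted p = 0.0397). Here the groups overlapped at mutant 6, which had 2.99 beside 2.71 to 3.77 in controls and differed from them by -0.12 on the log2 scale. The adjusted p was 0.0476 without mutant 6, and with any other single library left out it was 0.0595 to 0.119. The raised smallest p bears on these values too, and the log2 difference ran from -0.77 to -0.52.

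Within the *Dlx1* and *Dlx2* region no ratio passed the test in the *Lhx6* table. *Dlx2* to *Dlx1* had a mean of 0.222 ± 0.0145 (SD, n = 4) in controls, beside 0.215 ± 0.0515 (SD, n = 5) in mutants (exact permutation p = 0.722). *Dlx1as* to *Dlx1* was 0.0792 to 0.0854 in controls and 0.0329 to 0.0898 in mutants, with mutant 1 the lowest (exact permutation p = 0.262, adjusted p = 0.327). The log2 difference was -0.34. By the same test it was -0.10 without mutant 1 (adjusted p = 0.314) and -0.46 without mutant 3 (adjusted p = 0.0476). In the *Mtg8* table *Dlx1as* to *Dlx1* was 0.104 to 0.121 in controls and 0.0929 to 0.116 in the labelled mutants. *Dlx2* to *Dlx1* was 0.0365 to 0.0427 in *Mtg8* controls and 0.0365, 0.172 and 0.323 in the labelled mutants 2, 3 and 4. The exact permutation p of the 5 ratios ran from 0.3 to 0.9 in the *Mtg8* table, where the smallest that 3 against 3 libraries allow is 0.1.

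**Figure D4:**
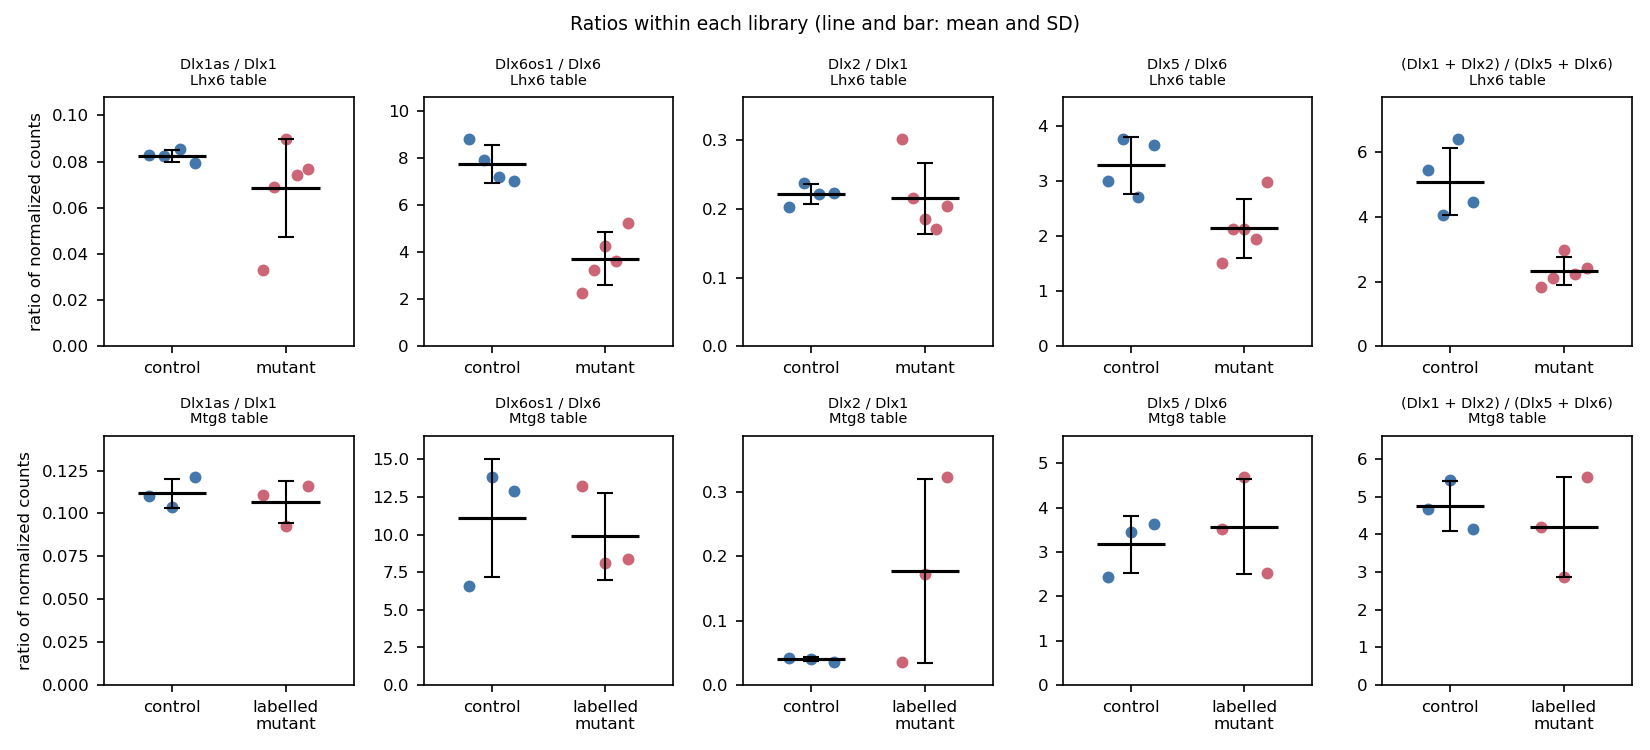
Ratio of normalized counts within each library (dots), with the mean and SD of each group, for 5 gene pairs in the *Lhx6* table (upper row) and the *Mtg8* table (lower row). The ratio of *Dlx1* plus *Dlx2* to *Dlx5* plus *Dlx6* is 4.08 to 6.42 in *Lhx6* controls and 1.84 to 2.99 in *Lhx6* mutants.

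Per kilobase of exon, *Dlx1* was the most abundant member in all groups. In *Lhx6* controls it had 2160 ± 451 normalized counts per kilobase (SD, n = 4), above *Dlx6os1* (988 ± 191), *Dlx5* (942 ± 71.1) and *Dlx2* (897 ± 153), which overlapped with each other, then *Dlx1as* (591 ± 135) and *Dlx6* (276 ± 35.3). *Dlx2* and *Dlx1as* overlapped at the edge, and *Dlx1as* and *Dlx6* did not. In *Lhx6* mutants the order was another. *Dlx1* (2330 ± 759, n = 5) was followed by *Dlx5* (1926 ± 265) and *Dlx6os1* (1463 ± 352), then by *Dlx2* (924 ± 254), *Dlx6* (903 ± 263) and *Dlx1as* (553 ± 325). Each gene overlapped with the next in this order.

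In *Mtg8* controls the order per kilobase was *Dlx1* (3589 ± 199, SD, n = 3), *Dlx6os1* (2142 ± 550), *Dlx5* (1440 ± 287), *Dlx1as* (1327 ± 170), *Dlx6* (442 ± 107) and *Dlx2* (272 ± 20.2). *Dlx6os1* overlapped with *Dlx5* and *Dlx5* with *Dlx1as*, and the other neighbours did not overlap. In the libraries labelled *Mtg8* mutant it was *Dlx1* (2341 ± 822, SD, n = 3), *Dlx6os1* (1512 ± 486), *Dlx5* (1204 ± 174), *Dlx2* (880 ± 960), *Dlx1as* (846 ± 374) and *Dlx6* (344 ± 134). *Dlx2* was the lowest member in *Mtg8* controls but not in *Lhx6* controls, although both control groups carried the same Cre and reporter and no mutant allele. On the scale of TPM, length-scaled shares within a library, *Dlx2* was at 114 ± 22.9 in *Lhx6* controls and at 29.9 ± 3.08 in *Mtg8* controls, and no test was made across the tables.

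Promoter windows are shown for *Dlx6os1* because this RNA surrounds *Dlx6*, and windows of *Dlx5* and *Dlx6* were not used here. The windows are RefSeq sequences of GRCm38.p6, 250 bases before to 50 after each start in RefSeq, read 5′ to 3′ on the minus strand. Capitals mark TAATTA, a palindromic core to which many homeodomain proteins bind:
Dlx6os1 start at chr6:6869484-6869783: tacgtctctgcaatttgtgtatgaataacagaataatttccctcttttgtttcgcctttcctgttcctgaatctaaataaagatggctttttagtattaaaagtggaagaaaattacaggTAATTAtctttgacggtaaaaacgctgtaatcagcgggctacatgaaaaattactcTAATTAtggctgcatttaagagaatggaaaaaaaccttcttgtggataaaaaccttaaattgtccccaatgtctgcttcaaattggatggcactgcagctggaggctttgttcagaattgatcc
Dlx6os1 start at chr6:6861634-6861933: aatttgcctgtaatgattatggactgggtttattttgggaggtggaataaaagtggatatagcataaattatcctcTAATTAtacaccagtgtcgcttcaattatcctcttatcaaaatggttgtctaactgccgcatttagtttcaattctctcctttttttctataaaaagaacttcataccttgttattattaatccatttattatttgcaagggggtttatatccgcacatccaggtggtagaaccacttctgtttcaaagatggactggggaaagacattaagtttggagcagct
The first window held 2 matches and the second 1, whereas the windows of *Dlx1*, *Dlx2* and *Dlx6os2* held 0. The RefSeq starts of *Dlx1* and both of *Dlx6os1* lie inside the spans of the gene models that were counted, and so are not the starts of those models. Of 32851 windows of this length, 5.29% held at least 1 match, and a match of these letters is a description of the sequence and not of binding.

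The genes around the *Dlx* pairs were examined next. Within 500 kb, 15 neighbouring genes were tested in the *Lhx6* table, 11 beside *Dlx1* and *Dlx2* and 4 beside *Dlx5* and *Dlx6*, and 0 were called. Their median log2 fold change was -0.10. *Gm44094*, an uncharacterized transcript in an intron of *Dlx6os1*, had the largest fitted value, at 3.17 normalized counts on average in controls and 28.4 in mutants, with a log2 fold change of 2.16 ± 0.84 (SE) and a limma adjusted p = 0.30. It passed the minimum mean of 10 only through the mutants. Of the neighbours in the *Mtg8* table, 14 were tested and 0 called, and the largest change was that of *Rapgef4*, at -0.49 ± 0.27 (SE, adjusted p = 0.859).

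**Figure D5:**
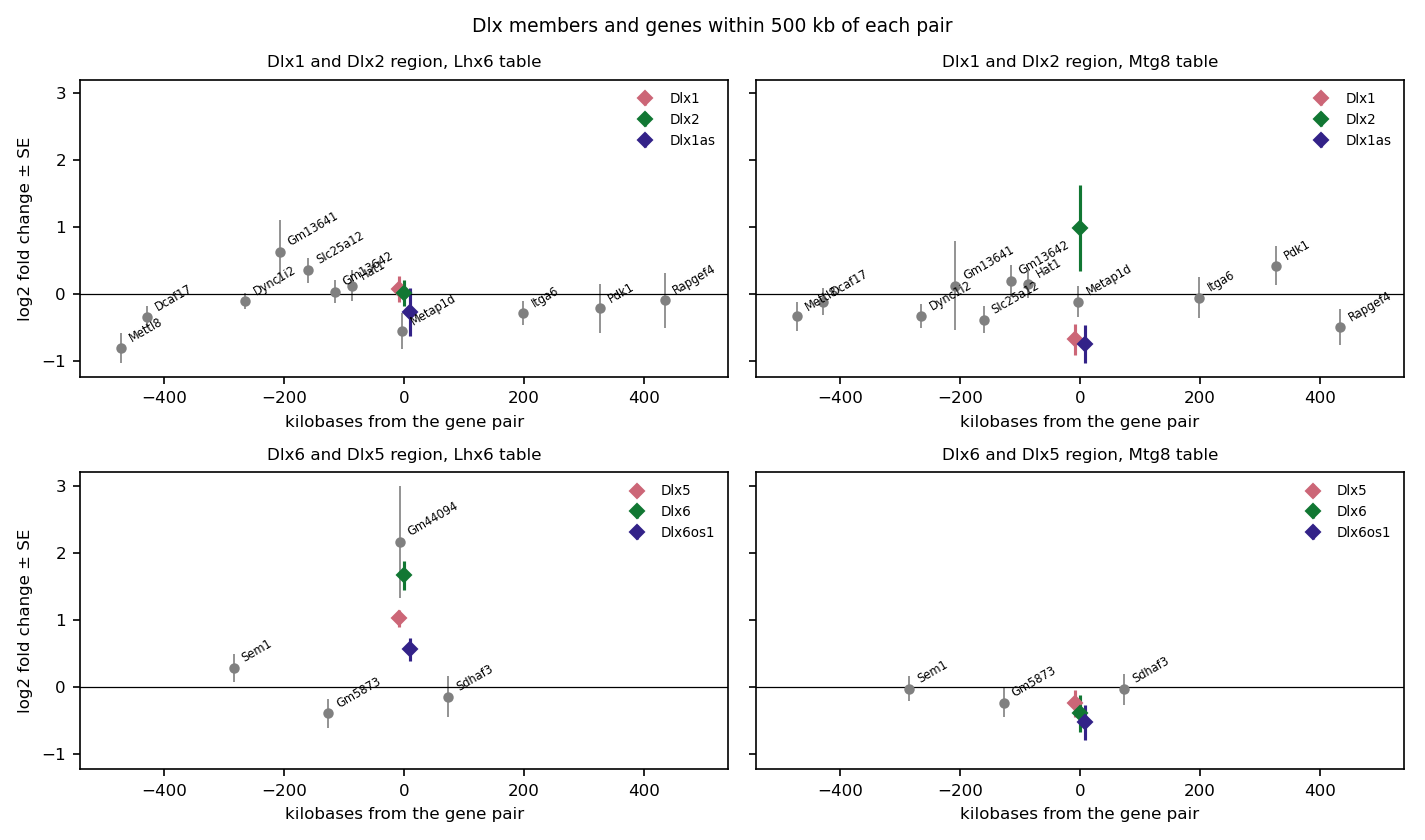
Log2 fold change with its SE for genes within 500 kb of each *Dlx* pair (grey, placed by distance in kilobases) and for the members (diamonds, drawn side by side at the pair). In the *Lhx6* table *Dlx5* and *Dlx6* lie at 1.02 and 1.66, and among the grey points near them *Gm44094*, which passed the filter only through the mutants, is the highest, at 2.16.

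Genes known to act above, with or below DLX were read from lists. Of the 6 upstream genes, 5 were tested in the *Lhx6* table and 0 were called. *Gsx1*, a homeobox gene of ventral progenitors, had the largest fitted value, at 3.8 normalized counts in controls and 20.2 in mutants (log2 fold change 1.94, limma adjusted p = 0.531). It and *Gsx2*, at 9.07 and 42.8, passed the minimum mean of 10 only through the mutants, so their values had to differ and no median of the list is given. Of the 9 partners and cofactors 5 were tested and 0 called, and *Ndn*, which encodes the DLX-binding protein Necdin, had a log2 fold change of 0.25 (adjusted p = 0.719). In the *Mtg8* comparison 3 upstream genes and 4 partners were tested and 0 were called, the largest fitted values being those of *Otx2* (1.02, adjusted p = 0.90, with means of 16.8 ± 25.3 in controls and 17.8 ± 14.1 in labelled mutants, SD, n = 3) and *Grip1* (-0.46, adjusted p = 0.859).

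Of 16 genes listed as raised by DLX, 15 were tested in the *Lhx6* table, of which 3 were called lower and 0 higher, with a median log2 fold change of 0.02. Among them were *Lhx6* itself and *Npas1*, a bHLH-PAS factor of forebrain GABAergic neurons. *Npas1* went from 484 to 120 normalized counts (log2 fold change -2.0, limma adjusted p = 0.00383). Of 5 genes listed as lowered by DLX, 4 were tested and 1 was called. This was *Nrp2*, a semaphorin receptor of migrating neurons, which rose from 274 to 855 (log2 fold change 1.62, limma adjusted p = 0.000482). In the *Mtg8* comparison 15 and 4 genes of these lists were tested and 0 were called, with the largest fitted values for *Sp8* (1.45, adjusted p = 0.636) and *Olig2* (2.23, adjusted p = 0.859). *Olig2* had means of 3.96 in controls and 17.7 in labelled mutants and passed the minimum mean of 10 only through the latter.

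Summed levels of several marker lists, like *Dlx5* and *Dlx6*, did not overlap between the *Lhx6* groups. The summed normalized count of 7 markers of interneurons of the caudal ganglionic eminence (CGE) was 1815 to 2108 in controls and 2583 to 3651 in mutants, with 1 gene called higher (*Adarb2*, log2 fold change 4.33) and 1 lower (*Htr3a*, -1.65), and all 7 had reads in every library. By fold change 3 of the 7 were higher (*Adarb2*, *Sp8* and *Nr2f2*) and 4 lower, with a median log2 fold change of -0.59, so the list did not move one way. That of 7 markers of striatal projection neurons was 777 to 1130 in controls and 1407 to 2609 in mutants, with 0 of 6 tested genes called and *Penk* among those at 0 in some libraries. The 11 MGE markers summed to 36205 to 42532 in controls and 14913 to 29070 in mutants, with 4 called lower, among them *Lhx6*, the deleted gene, and *Sst*. By fold change 4 of the 11 were higher (*Nkx2-1*, *Maf*, *Erbb4* and *Gad2*), none of them called, and 7 lower, with a median log2 fold change of -0.31. Without *Lhx6* and *Sst* the other 9 summed to 19262 to 23442 in controls and 13392 to 27466 in mutants, and the groups overlapped, so the gap between the full sums rested on these genes. Radial glia markers overlapped, at 8909 to 10935 and 8077 to 15377, and cycling markers did so at 4317 to 5820 and 3727 to 10111, with the highest value of both in mutant 6, the mutant with the lowest *Dlx5* and *Dlx6*. Projection neuron markers were at 14181 to 20189 and 11643 to 16142, and the 5 measured erythroid markers were at 5867 to 58178 and 1695 to 20197. Markers of the oligodendrocyte lineage, microglia and endothelium summed to at most 376 in any *Lhx6* library, with *Pdgfra*, *Sox10*, *Aif1*, *Cx3cr1* and *Cldn5* among those at 0 in some. The part of these cells in the *Dlx* results was not tested. In such bulk samples fewer cells of a type and less RNA per cell cannot be told apart.

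Beside *Dlx1* and *Dlx2* of the *Mtg8* table, the MGE markers summed to 56612 to 57652 in controls and 36104 to 40580 in the labelled mutants, with 0 of 11 called, and without *Lhx6* and *Sst* to 29662 to 32816 and 20066 to 26512. The 10 projection neuron markers summed to 5769 to 14135 and 8895 to 22881 and the 8 radial glia markers to 6018 to 7406 and 7859 to 12230. CGE markers summed to 1795 to 1958 in controls and 2159 to 2781 in the labelled mutants, and cycling markers to 3604 to 3893 and 4801 to 5400. The groups did not overlap for the MGE, radial glia, CGE and cycling sums, and overlapped for the projection neuron sums. They also overlapped for the sums of striatal projection neuron, oligodendrocyte lineage, microglia, endothelium and erythroid markers. Of the single genes tested in this comparison, 10.2% had groups without overlap. By fold change 10 of 10 projection neuron, 7 of 8 radial glia, 6 of 7 CGE and 6 of 6 cycling markers were higher, with 0 called. Of the 11 MGE markers 9 were lower and 2 higher. For the library labelled *Mtg8* mutant 4, which had the highest *Dlx2*, the CGE, radial glia and cycling markers summed to 2198.5, 7859 and 4801, and the radial glia and cycling sums were the lowest of the 3 labelled mutants. Its sums of the oligodendrocyte lineage markers (526) and of the genes upstream of DLX (1390.5) were the highest of the 6 *Mtg8* libraries. Their part in the *Dlx* values was not tested.

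Across libraries of one group some members varied together and others did not. Over the 9 *Lhx6* libraries, after subtracting each group's mean of log2 values, the correlation was 0.91 between *Dlx1* and *Dlx6os1*, 0.82 between *Dlx1* and *Dlx1as*, 0.75 between *Dlx1* and *Dlx2* and 0.56 between *Dlx5* and *Dlx6*. It was 0.42 between *Dlx6* and *Dlx6os1*, 0.29 between *Dlx2* and *Dlx1as* and -0.05 between *Dlx6* and *Dlx1as*. Over the 6 *Mtg8* libraries the same 7 pairs had 0.77, 0.99, 0.56, 0.52, 0.37, 0.46 and 0.79. The points share the libraries and their scaling, and the values are given as descriptions. Among 10822 genes with a mean of at least 100, those most like *Dlx5* were *Snrnp200*, *Top2b* and *Ppp1r7* (0.978, 0.952 and 0.936), with *Dlx6* at place 1077, and those most like *Dlx6* were *Gria4*, *Ppfia2* and *2310022A10Rik* (0.986, 0.985 and 0.981). For *Dlx1* they were *Ykt6*, *Camk2g* and *Dbndd1* (0.976, 0.965 and 0.964), and for *Dlx2* they were *Nanos1*, *Slc27a4* and *Zfp41* (0.982, 0.966 and 0.966). Over the 6 *Mtg8* libraries the same 12 pairs ran from -0.83 (*Dlx5* and *Top2b*) to 0.95 (*Dlx1* and *Camk2g*).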

How the data were processed

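YFP-positive cells of single E14.5 cortices were profiled by RNA-seq with single 75-base reads. The authors used fastp (0.20.1) for trimming, STAR (2.7b) for alignment and featureCounts (1.6.4) for counting. They left out sex-linked genes, for which they named GENCODE M23 (GRCm38.p6). The deposited values are a signal unit, read counts divided by the DESeq2 size factor of each library, with exon lengths beside them. The deposited fold changes, standard errors, test statistics and p-values of the authors' own comparisons were not used.

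Normalized counts plus a pseudocount of 1 were put on the log2 scale and genes with a mean of at least 10 were tested within each table with limma (3.58.1, trend), calling genes at a Benjamini-Hochberg adjusted p under 0.05. A fold change is thus on the log2(value + 1) scale, which understates changes of low genes. Whole reads were recovered from the steps of the values (100.0% whole within 0.01) and tested with edgeR (4.0.16) and DESeq2 (1.42.0) as alternatives. Other alternatives were the scaling, the pseudocount, the filter, the name style, the replicate number and leaving out each library. Ratios and single genes were compared by exact two-sided permutation tests. The tests were tried on simulated data. Members and lists were chosen with earlier results of these data known. All members were named, and of each list the called genes or, where none was called, the one with the largest change, except that some list genes are not reported here. Homeobox sequences came from GENCODE M21 (GRCm38) and promoters from RefSeq (GRCm38.p6).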

Additional observations from a re-analysis of the deposited data

Results flagged for a closer look

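Of 22 groups of values with at least 4 libraries that were checked for a library far from the others, 1 had one, and chance alone does this in about 1 in 20. *Dlx1* in *Lhx6* mutant 3 was at 19816.1 normalized counts, and its gap to the next library was 0.847 of the range of the group, over the limit of 0.71 for 5 libraries.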

How the results depend on the processing

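Over all alternatives, 368 of 438 values were labelled the same as the main result. For fold changes and ratios this means the same direction and the same side of the threshold. The 438 also hold counts of called genes and levels per kilobase, which have no such side. Among the counts over the whole *Lhx6* table, 198 without control 3 was labelled the same as 286, and 174 without control 2 was labelled moved. In the *Lhx6* table the members called numbered 0 with name style as a covariate and 1 with the replicate number as a block. With the style covariate the log2 fold changes were -0.15 (*Dlx1*), -0.26 (*Dlx2*), 0.85 (*Dlx5*) and 0.97 (*Dlx6*), and *Dlx2* was at -0.02 with TMM factors and -0.04 with equal totals. Genes called over the whole table numbered 811 with DESeq2, 57 with the style covariate and 86 with the block, against 286. Without one library they numbered 159 (control 1) to 492 (mutant 6), with 174 without control 2 and 173 without control 4. In the *Mtg8* table they numbered 31 with DESeq2, 1 with edgeR, 2 at a mean of at least 50 and 1 with no filter, and 0 to 87 without one library, the latter without mutant 2 and 1 without control 1 or 2.

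Most same-numbered embryos shared only a number, but *Mtg8* control 2 and labelled mutant 2 also shared a name stem, as did control 1. The deviations of same-numbered embryos correlated at -0.154 to 0.0717 (*Lhx6*) and at 0.138 and 0.159 (*Mtg8*). Between embryos of different number they ran from -0.207 to 0.184 (*Lhx6*) and from -0.18 to 0.0778 (*Mtg8*). Whether the numbers stand for a pairing was not settled by these values. With the replicate block *Dlx5* had a log2 fold change of 1.15 (adjusted p = 0.0812, limma) in the *Lhx6* comparison. In the *Mtg8* comparison the block gave 100 called genes, of which 1 was a member, *Dlx2*, at 1.07 (adjusted p = 0.0162), although its 2 pairs differed by -0.79 and 2.93.

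With one library left out, the *Lhx6* log2 fold changes ran from -0.09 to 0.18 (*Dlx1*), from -0.11 to 0.11 (*Dlx2*) and from -0.55 to 0.04 (*Dlx1as*). In the same way the log2 ratio differences ran from -1.24 to -0.94 (*Dlx6os1* to *Dlx6*), -0.77 to -0.52 (*Dlx5* to *Dlx6*), -1.23 to -1.01 (*Dlx1* plus *Dlx2* to *Dlx5* plus *Dlx6*), -0.46 to -0.10 (*Dlx1as* to *Dlx1*) and -0.20 to 0.01 (*Dlx2* to *Dlx1*). Among undated libraries alone the first 3 were -0.56, -0.12 and -1.04. In the *Mtg8* table they ran from -0.47 to 0.06, -0.07 to 0.37, -0.44 to 0.03, -0.13 to 0.03 and 0.98 to 2.56. Among dated *Mtg8* libraries alone they were 0.47 (*Dlx6os1* to *Dlx6*), 0.06 (*Dlx1as* to *Dlx1*) and -0.20 (*Dlx2* to *Dlx1*), beside -0.65, -0.22 and 2.69 among undated ones. *Dlx5* to *Dlx6* was at 0.28 among dated and -0.08 among undated libraries. Dividing the same full counts by the exon length not shared with another gene changed some places. *Dlx6* took place 4 and *Dlx2* place 5 in *Lhx6* mutants, and *Dlx1as* place 3 and *Dlx5* place 4 in *Mtg8* controls. In the labelled *Mtg8* mutants *Dlx1as* took place 4 and *Dlx2* place 5. Only the divisor changed, so these changes of place follow from the shorter lengths. Whether the deposited counts hold reads on shared exon is not given in the sources used here. The cause of the other shifts was not tested.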

Other observations

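The control libraries of the *Lhx6* and *Mtg8* tables differed in the balance of *Dlx2* and *Dlx1*. The ratio of *Dlx2* to *Dlx1* ran from 0.203 to 0.238 in the 4 *Lhx6* controls and from 0.0365 to 0.0427 in the 3 *Mtg8* controls. Of the libraries labelled *Mtg8* mutant, mutant 3 with 0.172 and mutant 4 with 0.323 lay nearer the *Lhx6* controls, and mutant 2 with 0.0365 did not. A ratio within a library does not depend on the size factor, but the tables come from separate fits and the difference between them was not tested.

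*Runx1t1*, which encodes MTG8, was higher in the *Lhx6* mutants, at 17973 ± 5387 normalized counts (SD, n = 5) beside 7449 ± 1072 in controls (SD, n = 4), with a log2 fold change of 1.23 and a limma adjusted p = 0.00401. Every mutant, undated mutant 6 among them, had at least 12227, and every control at most 8945. For the dated mutants genotype and name style cannot be told apart.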
